A study of Homo sapiens with 16 samples.

Results

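The genes described here are the 7 FOS and JUN family members FOS, FOSB, FOSL1, FOSL2, JUN, JUNB and JUND, which encode the core subunits of the transcription factor AP-1. They were set against 4 lists of genomic regions, called clusters, obtained by ChIP-seq (sequencing of immunoprecipitated chromatin) for AIB1, a coactivator of nuclear receptors and the product of NCOA3. A cluster was assigned to a gene when its nearest edge lay within 200 kb of the gene's canonical transcription start site (TSS), the start of the transcript that the GENCODE annotation marks as canonical. By this rule 9 of the 897 different clusters in the 4 lists belonged to the family, which makes up 7 of the 18547 protein-coding genes on the chromosomes that hold clusters.

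The cells were MCF10A, a non-tumorigenic human mammary epithelial line, MCFDCIS, a related line used as a model of ductal carcinoma in situ, and a D4 version of both. The labels do not spell out D4, nor say how the D4 cells were made or whether they are 1 clone. All groups were grown in the same medium, with 5% horse serum, EGF at 20 ng/ml, hydrocortisone, cholera toxin and insulin. A group comprised 3 ChIP samples and 1 input but is represented by 1 list, without values for the single samples, so no replicate error can be given and no difference between lists was tested.

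The line of a list is uncertain: the sample descriptions of 1 line cite the list named after the other. Lists are referred to here by the line in their name, as MCF10A-named or MCFDCIS-named. The lists held 490 and 138 clusters (MCF10A-named parental and D4) and 651 and 99 clusters (MCFDCIS-named parental and D4), and sequencing depth is unknown. The D4 lists were the shorter ones, and the part of list length in the number of D4 clusters near a gene was not tested. Chromosomes 20, 21 and 22 carried 0 clusters, so NCOA3 itself, on chromosome 20, was not analysed here. The lists hold no expression values, so the labelled cell type could be set only against clusters: 8 of 12 basal and myoepithelial marker genes had one within 200 kb in any list, as did 2 of 8 luminal, 1 of 6 blood and 1 of 5 fibroblast marker genes, against 11.7% of all genes. These counts are not of separate clusters, since KRT17, KRT14 and the luminal gene KRT19 shared a nearest cluster, as did KRT6A and KRT5.

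AP-1 is a dimer of basic leucine zipper proteins. FOS proteins pair with JUN proteins, whereas JUN proteins can also pair among themselves, and the dimers bind the sequence TGACTCA. FOS, FOSB, JUN and JUNB are immediate early genes, switched on quickly by serum and growth factors such as EGF, while FOSL1 and FOSL2 usually follow later. In epithelial cells AP-1 sites are common in enhancers, and coactivators of the AIB1 family are known to work with AP-1 as well as with nuclear receptors.

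The sequences below come from the clusters nearest to a family gene and from every family cluster that was in a D4 list. They are read from the GRCh37 plus strand, in lower case, with exact matches to the searched motifs in capitals. Narrow clusters are shown with flanking bases, clusters over 300 bp by their centre, and bases annotated as untranslated were left out. The first 3 hold the AP-1 sequence TGACTCA, or TGAGTCA on the other strand.
FOSL1, chr11:65683295-65683414, around a cluster in both parental lists: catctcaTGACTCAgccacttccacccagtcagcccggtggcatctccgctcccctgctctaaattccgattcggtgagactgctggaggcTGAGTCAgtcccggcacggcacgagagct
FOSB, chr19:45959255-45959554, centre of a cluster in both parental lists and the MCF10A-named D4 list: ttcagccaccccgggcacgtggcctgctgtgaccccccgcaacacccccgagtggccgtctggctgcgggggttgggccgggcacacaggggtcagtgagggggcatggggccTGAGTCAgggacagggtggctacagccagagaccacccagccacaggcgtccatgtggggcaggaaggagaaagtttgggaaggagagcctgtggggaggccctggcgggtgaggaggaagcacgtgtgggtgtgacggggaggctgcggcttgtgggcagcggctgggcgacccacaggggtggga
FOSB, chr19:45927626-45927804, within a cluster in the MCF10A-named D4 list only: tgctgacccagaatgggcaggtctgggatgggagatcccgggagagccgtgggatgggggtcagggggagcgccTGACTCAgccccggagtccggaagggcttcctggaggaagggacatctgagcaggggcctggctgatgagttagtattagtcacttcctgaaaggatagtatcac
The other 4 hold no match to any searched motif.
FOSB, chr19:45970401-45970610, a cluster just upstream of the FOSB start: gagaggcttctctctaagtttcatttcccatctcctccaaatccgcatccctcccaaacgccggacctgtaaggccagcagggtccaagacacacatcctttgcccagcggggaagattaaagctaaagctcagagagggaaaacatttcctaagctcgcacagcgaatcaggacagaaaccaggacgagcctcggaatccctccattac
FOSB, chr19:45972355-45972654, centre of the cluster over FOSB intron 1: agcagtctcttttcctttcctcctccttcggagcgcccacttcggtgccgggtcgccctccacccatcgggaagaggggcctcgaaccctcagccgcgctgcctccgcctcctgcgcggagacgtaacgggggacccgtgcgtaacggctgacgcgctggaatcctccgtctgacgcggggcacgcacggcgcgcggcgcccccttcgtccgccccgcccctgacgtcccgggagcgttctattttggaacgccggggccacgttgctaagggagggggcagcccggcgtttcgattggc
FOSB, chr19:45982087-45982204, within a cluster of the MCFDCIS-named parental and D4 lists: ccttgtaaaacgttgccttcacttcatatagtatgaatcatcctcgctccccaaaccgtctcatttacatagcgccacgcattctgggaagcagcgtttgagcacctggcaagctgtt
FOSB, chr19:46117370-46117489, around a cluster in the MCFDCIS-named D4 list only: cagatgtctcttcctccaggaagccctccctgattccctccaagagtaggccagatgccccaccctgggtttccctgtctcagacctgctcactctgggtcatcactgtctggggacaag

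FOS, FOSB, FOSL1 and JUN, 4 of the 7 members, had a cluster within 200 kb in both parental lists, whereas FOSB alone had one in the D4 lists. FOSL2, JUNB and JUND had none in any list. Among all protein-coding genes, the share with a cluster at this range was 7.49% (MCF10A-named parental), 10.8% (MCFDCIS-named parental) and 6.93% for both parental lists. The D4 figures were 1.99% (MCF10A-named) and 2.54% (MCFDCIS-named). The members' share in the parental lists was above these values, but the members were chosen with earlier results known, so these counts are a description.

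Of the 9 family clusters, 6 lay around FOSB and 1 each near FOS, FOSL1 and JUN. The MCF10A-named parental list held 4 of them and the MCFDCIS-named parental list 7, and each D4 list held 2. All 4 of the MCF10A-named parental clusters were also in the MCFDCIS-named parental list, where they were 4 of 7. Over all clusters the parental lists shared 307, which were 62.7% of the MCF10A-named and 47.2% of the MCFDCIS-named list. Of the parental family clusters, 3 of 4 (MCF10A-named) and 6 of 7 (MCFDCIS-named) were absent from the D4 list of the same name. Over all clusters the same held for 423 of 490 and 586 of 651.

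**Figure D1:**
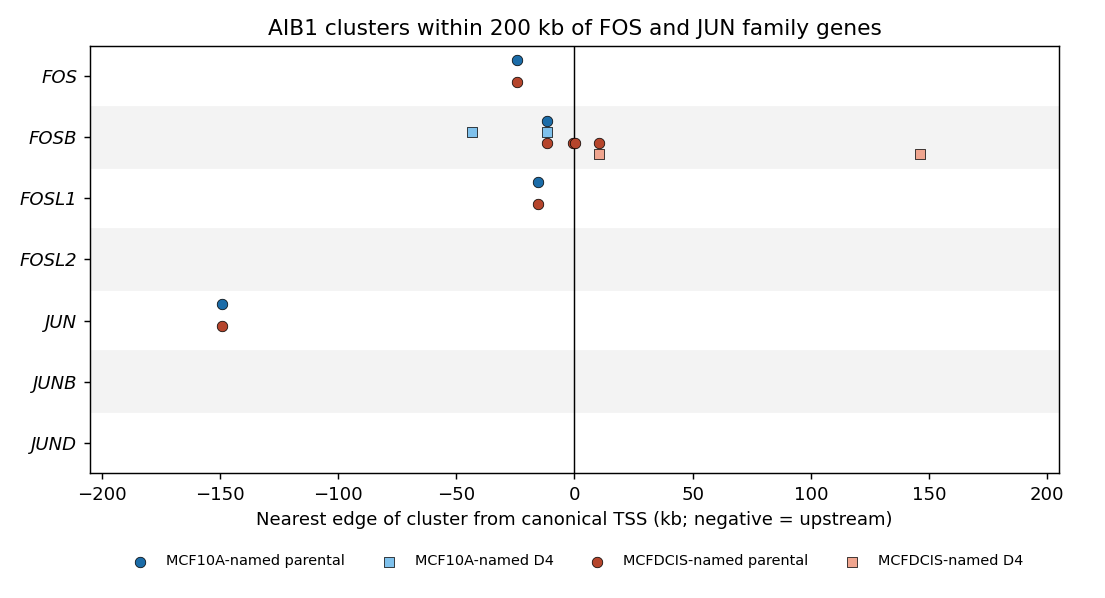
Distance in kb from each gene's canonical TSS (horizontal axis, negative upstream) to the nearest edge of each cluster within 200 kb, 1 point per cluster and list, with circles for parental and squares for D4 lists. The 4 D4 points all lie in the FOSB row, and the FOSL2, JUNB and JUND rows are empty.

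FOSB was the member with the most clusters and had at least 1 in every list. It encodes a FOS protein, of which a short splice form lacks the activating C-terminal end. Its canonical TSS is at position 45971254 of chromosome 19 on the plus strand. In the MCFDCIS-named parental list 4 clusters lay within 25 kb of this start and none farther out to 200 kb. At least 4 clusters within 200 kb were found for 0.561% of all genes and 1.39% of chromosome 19 genes in that list. The MCF10A-named parental list held 1 of the 4. Each D4 list held 2 FOSB clusters, and at least 2 within 200 kb were found for 0.35% (MCF10A-named D4) and 0.491% (MCFDCIS-named D4) of all genes.

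The FOSB clusters of the MCFDCIS-named parental list lay on both sides of the gene, spanning 23.4 kb. At 11.6 kb upstream was a cluster of 510 bp, chr19:45959151-45959660, which was also the only FOSB cluster of the MCF10A-named parental list. At 0.644 kb upstream was one of 210 bp, chr19:45970401-45970610. The third, chr19:45971651-45973360, had 1710 bp, began 0.397 kb downstream of the canonical start, had its centre in intron 1 and held the starts of other annotated FOSB transcripts, the first at 45971693. The fourth, chr19:45981601-45982510, had 910 bp and lay 10.3 kb downstream of the start, past the end of the gene.

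The 2 clusters nearest the FOSB start were in the MCFDCIS-named parental list only. A cluster within 1 kb of the canonical TSS was present for 0.302% of all genes in that list, and for 0.189% in the MCF10A-named parental list. By rank within the list, where 1 is the highest of the authors' scores, the upstream one stood at 278 of 651 and the one over intron 1 at 525 of 651. By width the latter was 66th, so it was broad but not highly scored.

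The cluster 11.6 kb upstream of FOSB was in 3 of the 4 lists. Its rank was 72 of 490 (MCF10A-named parental), 184 of 651 (MCFDCIS-named parental) and 118 of 138 (MCF10A-named D4). It was therefore in the upper part of both parental lists and near the bottom of the D4 list. In the authors' deposited table its scores were 26.7, 33.5 and 7.48 in that order, and the lowest score of any cluster in the D4 list was 7.01. Scores are not compared between lists here, since their definition is not stated. Of all 897 clusters, 43 were in 3 lists and 6 in all 4, and none of those 6 was near a family gene.

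The cluster 10.3 kb downstream was the only one near FOSB shared by the MCFDCIS-named pair. It was 650th of 651 in the parental list and 77th of 99 in the D4 list. In the authors' deposited table these scores were 7.02 and 8.18, and the lowest score of the D4 list was 7.11. The lists hold nothing on regions that were not called.

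Each D4 list also had 1 FOSB cluster that its parental list lacked. In the MCF10A-named D4 list this was chr19:45927451-45927860, 410 bp wide and 43.4 kb upstream of FOSB, at rank 23 of 138. In the MCFDCIS-named D4 list it was chr19:46117401-46117460, 60 bp wide and 146.1 kb downstream, at rank 7 of 99. Both were in the upper part of their lists, and neither was nearest to FOSB. The first lay 0.276 kb from the canonical TSS of ERCC1, a DNA repair endonuclease gene, and the second lay in intron 17 of EML2, a microtubule-binding protein gene, with the TSS of GPR4, a proton-sensing receptor gene, nearest at 11.9 kb and 11 coding starts nearer than that of FOSB.

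In each pair, then, 1 of 2 D4 family clusters was also parental. The same share over all clusters was 48.6% (exact Clopper-Pearson 95% interval 40 to 57.2, 67 of 138) for the MCF10A-named pair and 65.7% (55.4 to 74.9, 65 of 99) for the MCFDCIS-named one, intervals that cover the number of clusters only. The interval of 1 in 2 is 1.26% to 98.7%, which would include nearly any share. With 2 clusters, both near FOSB, no comparison with all clusters can be drawn. The D4 lists shared 9 clusters in all and none near FOSB. Of 119 genes with a cluster within 200 kb in both D4 lists, 101 had them through different clusters only, as FOSB did.

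**Figure D2:**
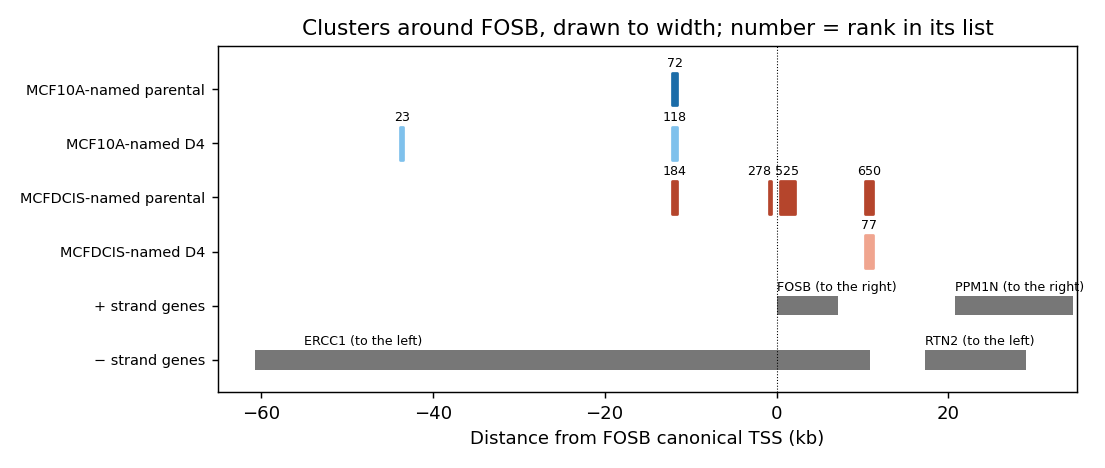
Clusters around FOSB in the 4 lists, drawn to width against the distance in kb from the FOSB canonical TSS, with the rank of each in its list above it and the FOSB, ERCC1, RTN2 and PPM1N genes as grey bars. Ranks 650 and 77 mark the shared downstream cluster at the start of the longest ERCC1 transcript, and the MCFDCIS-named D4 cluster 146.1 kb downstream is outside the plot.

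FOSB shares its locus with ERCC1, which is on the minus strand and whose annotated extent, chr19:45910592-45982086, runs across the whole FOSB gene. The canonical ERCC1 transcript starts at 45927175, but longer transcripts start farther out. The cluster in the MCF10A-named D4 list only held the start of an ERCC1 transcript at 45927625, and the downstream cluster of the MCFDCIS-named pair held that of the longest one at 45982086. Both D4 lists thus had a cluster at an annotated ERCC1 start, a different start in each. Among all clusters, a coding transcript start lay inside 2.90% (exact 95% interval 0.795 to 7.26) in the MCF10A-named D4 list and 8.08% (3.55 to 15.3) in the MCFDCIS-named D4 list, against 2.04% and 3.38% in the parental lists in that order. These clusters count for FOSB by distance and cannot be assigned to either gene from the lists.

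At least 1 cluster within 200 kb in each of the 4 lists, not always the same cluster, was found for 110 genes, 0.593% of all. Of these genes, 51 were on chromosome 19 (3.55% of its genes). All 12 other genes with a TSS within 200 kb of that of FOSB were among them, since their windows overlap. On chromosome 19 the shares with a cluster within 200 kb were higher than over all genes, at 17.7% and 5.85% in the MCF10A-named parental and D4 lists and 32% and 12.1% in the MCFDCIS-named ones. FOSB thus lies on a chromosome where more genes than average were near a cluster in every list. JUNB and JUND lie on the same chromosome and had no cluster, with the nearest at 4481.5 kb for JUNB and 9971.7 kb for JUND in both parental lists.

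FOS, the founding member of the family, had 1 cluster, in both parental lists and in neither D4 list. It was 110 bp wide, chr14:75721201-75721310, and lay 24.2 kb upstream of the FOS TSS at 75745531. FOS was the nearest coding gene, and the cluster was inside the body of the non-coding RNA gene ENSG00000258740. It ranked 145 of 490 (MCF10A-named parental) and 91 of 651 (MCFDCIS-named parental), 29.6% and 14.0% of the way down. In these lists 1.13% and 1.80% of all genes had a nearer cluster. In both D4 lists the nearest cluster to FOS was 6336.7 kb away.

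FOSL1 encodes FRA-1, a FOS protein without the activating C-terminal end that is often high in basal-type breast cells. Its cluster, chr11:65683351-65683360, was 10 bp wide, the smallest width in the lists, and lay 15.5 kb upstream of the TSS at 65667859. It was in both parental lists and in neither D4 list. Its places were far apart, with rank 450 of 490 under the MCF10A name and rank 85 of 651 under the MCFDCIS name. In the authors' deposited table the scores were 7.55 and 51.4, where the list medians were 12.1 and 20.1. The TSS of C11orf68 at 3.17 kb and of 1 other gene lay nearer to it than that of FOSL1, and 22 other coding starts lie within 200 kb of FOSL1, against a median of 5 over all genes.

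JUN, the main JUN protein gene, had a cluster only at long range. The cluster of 60 bp, chr1:59398651-59398710, was in both parental lists and lay 148.9 kb upstream of the TSS at 59249719. It ranked 265 of 490 and 296 of 651, near the middle of both lists. JUN was the nearest protein-coding gene, but the starts of the non-coding RNA genes LINC01358 and LINC02777 were nearer, at 0.605 kb and 1.08 kb on either side. A nearer cluster was present for 5.62% (MCF10A-named parental) and 8.40% (MCFDCIS-named parental) of all genes.

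FOSL2, which encodes FRA-2, had its nearest cluster at 593.5 kb, chr2:28022001-28022260, in both parental lists. This cluster was nearest to MRPL33. JUNB, whose product often opposes JUN, has 28 other coding starts within 200 kb, and JUND, expressed steadily in many tissues, has 16. The share of all genes with a nearer cluster than FOSL2 was 18.5% (MCF10A-named parental) and 23.1% (MCFDCIS-named parental). For JUNB it was 60.5% and 65.0%, and for JUND 80.5% and 83.9%, in the same order. Across the 200 kb limit, the farthest cluster inside was that of JUN at 148.9 kb, and the nearest outside was one 254.4 kb from FOSB in both parental lists. The limit thus fell in a gap for every member. The median distance from a TSS to the nearest cluster was 148.9 kb for the 7 members in both parental lists, against 3019.5 kb (MCF10A-named) and 2376.7 kb (MCFDCIS-named) over all genes. In the D4 lists the medians were 16317.3 kb and 18314.8 kb for the members and 20536.8 kb and 20551.7 kb over all genes. With 7 members each median is the distance of 1 gene. In both parental lists that gene was JUN, through the same cluster, and in both D4 lists it was JUND.

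**Figure D3:**
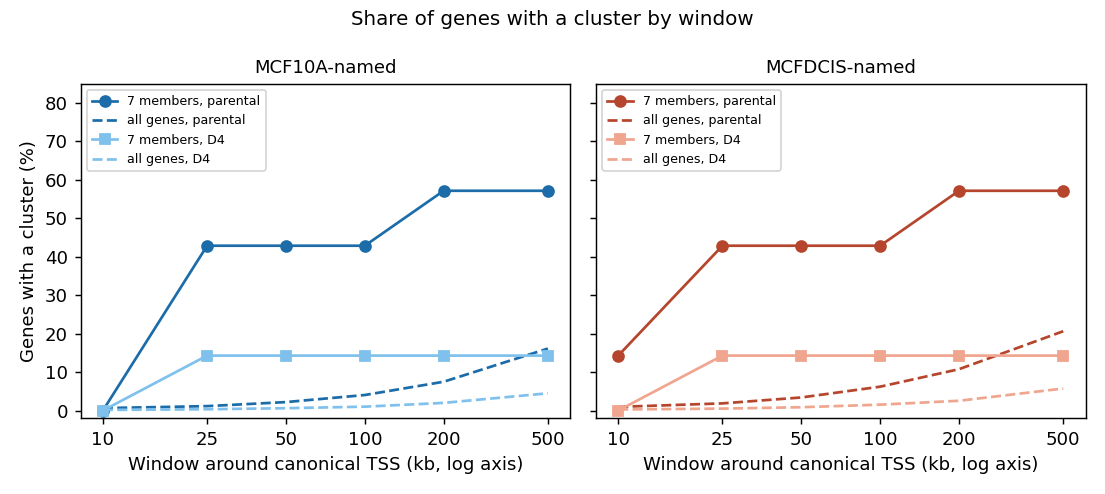
Percent of the 7 members (solid, with points) and of all 18547 protein-coding genes (dashed) that have a cluster within a window around the canonical TSS, against the window in kb on a log axis, for parental and D4 lists of each line name. From 25 kb to 500 kb the members' share rises from 42.9% to 57.1% in both parental lists and stays at 14.3%, FOSB alone, in both D4 lists.

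By the authors' score, 2 of 4 (MCF10A-named parental) and 5 of 7 (MCFDCIS-named parental) were above the middle of their list. In each D4 list it was 1 of 2, the one absent from the parental list. The median position of the family clusters was 41.8% of the way down the MCF10A-named parental list and 42.7% down the MCFDCIS-named one. The highest place in a parental list was that of FOSL1, at 13.1% in the MCFDCIS-named one.

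**Figure D4:**
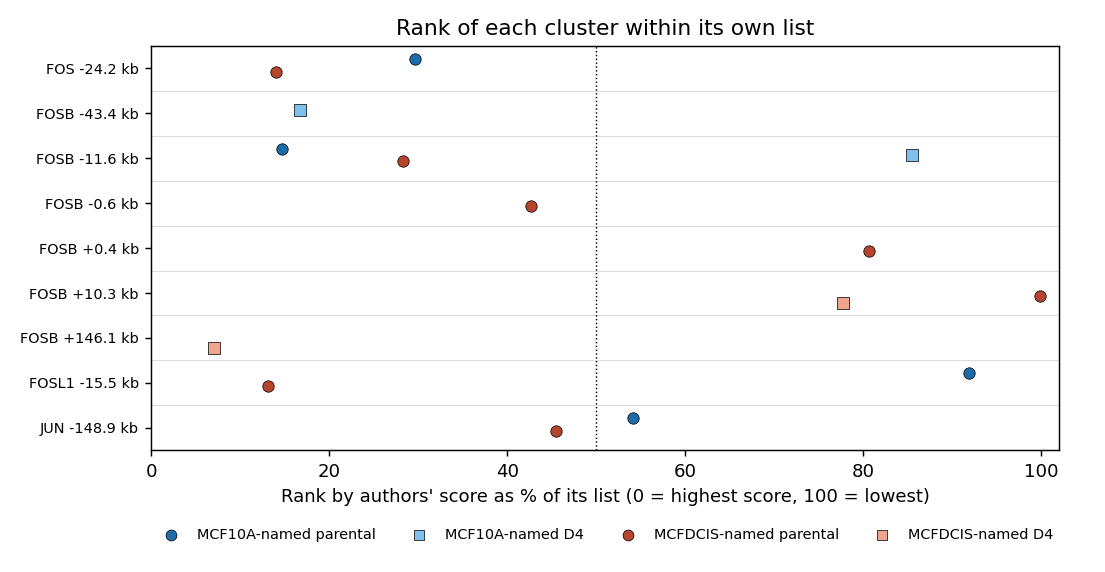
Rank of each family cluster within its own list, as a percent of the list's length (0 is the highest authors' score, the dotted line is the middle), 1 row per cluster with its distance from the TSS. FOS points lie left of the middle in both parental lists, while the FOSL1 points lie at 13.1% and 91.8%, and the D4 squares fall on both sides.

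AP-1's own sequence was searched in 500 bp around the centre of each cluster, on both strands. Median cluster width was 110 bp in the MCF10A-named parental list and 60 bp in the others. For many clusters the window therefore took in flanking bases, and the counts include matches there. TGACTCA was in 3 of the 9 family clusters, against 25.1% of all 897 (exact 95% interval 22.3 to 28.1). These were the FOSL1 cluster, with 2 matches centred 50 bp before and 34 bp after its centre, the FOSB cluster 11.6 kb upstream and the FOSB cluster at the ERCC1 start. All 4 matches lay within 50 bp of the cluster's centre, but both FOSL1 matches were in flanking bases, outside the narrow cluster itself. The FOS and JUN clusters and the 2 nearest the FOSB start held none. By list, 2 of 4 family clusters of the MCF10A-named parental list had the match against 27.6% (23.6 to 31.7) of the whole list. For the MCFDCIS-named parental list it was 2 of 7 against 28.6% (25.1 to 32.2). Both family clusters of the MCF10A-named D4 list had it, against 29 of all its 138 clusters, and neither of the MCFDCIS-named D4 list, against 11 of 99.

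Of the other motifs searched, 3 were absent from the family clusters. The cAMP response element TGACGTCA, bound by CREB and by JUN with ATF proteins, was in none of the 9 and in 1.23% of all clusters. The glucocorticoid response element was in none and in 7.02% of all clusters, and the CArG box, bound by serum response factor, in none and in 3.23%. GGAATG, the TEAD site, was in 3, those of FOS, JUN and the ERCC1 start, against 35.1% of all. None of these TEAD matches lay within the central 200 bp, and those of FOS and JUN were in flanking bases, outside the cluster itself. In the 250 bases before the canonical TSS, JUND had 1 TGACGTCA, found in 2.41% of all genes, and no other searched motif was matched in that stretch of any member. The central 500 bp was richer in G and C than the median of every list (42.0% to 48.4%) in 8 of the 9 clusters, and reached 67.6% in the cluster over FOSB intron 1. The exception was the FOSB cluster 10.3 kb downstream, at 47.2%. The share of all clusters above these medians was not counted, and most of the 9 lie at the single FOSB locus. The central 50 bases of each family cluster occurred once in the reference.

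Among other genes, 4 of 19 further basic leucine zipper genes had a cluster within 200 kb in any list, against 11.7% of all genes. Another 4 of the 23 zipper genes looked up are on chromosomes without clusters. ATF5, a stress-responsive factor, had one at 52.7 kb in both parental lists and the MCFDCIS-named D4 list. CREB1 at 103.0 kb, JDP2, a repressor that pairs with JUN, at 173.4 kb and BACH2 at 198.5 kb had theirs in both parental lists. The JDP2 cluster was the FOS cluster, to which the FOS start lies nearer. Of the upstream kinases and regulators 2 of 19 did, MAP2K1, the ERK-activating kinase gene, at 3.95 kb and the serum response cofactor gene ELK4 at 154.0 kb, both in the MCFDCIS-named parental list only.

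Immediate early genes outside the family had 6 of 26 with a cluster in any list, against 11.7% of all genes. MYC was the only one in all 4 lists. DUSP1, a MAP kinase phosphatase gene, had a cluster at 4.45 kb (MCF10A-named parental) and another at 129.0 kb (MCFDCIS-named parental). PHLDA1 had one at 11.3 kb in the MCFDCIS-named parental and D4 lists and another at 53.6 kb in the MCF10A-named parental list, TRIB1 at 21.9 kb in both parental lists, IER5 at 23.9 kb (MCFDCIS-named parental only) and CCN1 at 48.1 kb (MCF10A-named parental only). Of known AP-1 targets 6 of 22 had a cluster in any list, against the same 11.7%. They were MT2A at 1.14 kb, KRT6A at 1.41 kb, KRT16 at 11.9 kb, ITGB6 at 28.5 kb and KRT14 at 37.8 kb, each in both parental lists and neither D4 list (KRT16 and KRT14 through the same cluster), and PLAUR, the urokinase receptor gene, in all 4 lists. PLAUR also lies on chromosome 19, and its nearest cluster was at 83.1 kb in both MCF10A-named lists and at 98.1 kb in both MCFDCIS-named lists. Each parental list held 4 of 19 further basic leucine zipper genes, 5 of 26 immediate early genes and 6 of 22 targets. Of the 19 upstream kinases and regulators, the MCF10A-named parental list held 0 and the MCFDCIS-named one 2. The share of all genes was 7.49% (MCF10A-named) and 10.8% (MCFDCIS-named) in these lists. In the MCF10A-named D4 list the counts of zipper genes, immediate early genes and targets were 0, 1 and 1. In the MCFDCIS-named D4 list they were 1, 2 and 1. Both D4 lists held 0 of the 19 upstream kinases and regulators. The share of all genes was also lower there, at 1.99% (MCF10A-named D4) and 2.54% (MCFDCIS-named D4).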

How the data were processed

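Per the labels, AIB1 ChIP-seq was made on 12 ChIP and 4 input samples after crosslinking with 1.2% formaldehyde. The authors deposited 4 cluster lists with 1 score per cluster, whose definition is not stated. The series' design text states normalization to input, and the build is hg19 (GRCh37) per the submitters' processing notes. Aligner, caller, threshold and how samples were combined were not given in the sources used here. Starts were converted to 1-based positions.

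Distances run from the cluster's nearest edge to the canonical TSS in GENCODE release 44 lifted to GRCh37. Scores were used only to rank within a list, and those quoted are as deposited. Shared clusters overlap by at least 1 bp. All members and their clusters are named, and up to 8 genes per pathway list. The members and lists were chosen with earlier results of these data known. The distance calculation was tested on simulated clusters placed at set distances from real starts. A search for TGACTCA alone was tested on copies planted in random A and T bases. The other motif patterns were not tested this way. Python 3.11.15, SciPy 1.17.1, pysam 0.24.0 and matplotlib 3.10.9 were used. Genes on chromosomes without clusters were left out. Other windows, TSS sets, score filters and motif widths were tried.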

Additional observations from a re-analysis of the deposited data

How the results depend on the processing

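No paired analysis was possible because each group has a single list without replicate values, and no replicate could be left out for the same reason. Counts of members and clusters stayed within 1.5 times with a 500 kb window, with any coding TSS, with midpoint distances and with clusters within 5 kb merged. With a 100 kb or a 50 kb window the MCFDCIS-named D4 list kept 1 family cluster of 2. With a 100 kb window 1 of the further basic leucine zipper genes and 1 upstream regulator remained. With clusters above the median score of their list, the MCF10A-named parental list had 2 members and 2 clusters, each D4 list 1 cluster, and 0 D4 clusters were also parental in either pair. Under this filter 1 upstream regulator remained. With the central 200 bp, GGAATG was in 0 of 9 family clusters. Ranks by width moved by over 1.5 times for 9 of 15 cluster entries, 5 toward a higher and 4 toward a lower place. Allowing shared clusters to lie within 1 kb or 5 kb of each other left the counts at 1 in each pair. Depth limits could not be assessed from the lists.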
